A study of Homo sapiens with 4 samples.

Results

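SWI/SNF chromatin remodelling subunits were followed on 4 Illumina bead arrays of 2 human lung cancer cell lines. The members were 10 genes chosen by name, SMARCA2, SMARCA4, SMARCB1, SMARCC1, SMARCC2, SMARCD1, SMARCD3, SMARCE1, ARID1A and ARID1B, and every probe carrying one of these symbols was kept. These are 10 of the 31424 symbols in the file, and 19 of its 47321 probes. Of these, 11 probes of 9 genes were detected (array software detection p below 0.01) on at least 2 arrays, 9 of them on all 4 arrays. The other 8 were detected on none. The groups, with 1 array each, were A549 cells with siRNA knockdown of TET1, A549 parent cells given vehicle, H1299 cells with siRNA knockdown of TET1 and H1299 parent cells given vehicle. A549 comes from a lung adenocarcinoma and H1299 from the lymph node metastasis of a non-small cell lung carcinoma. The siRNA sequence, dose and time after transfection, and whether the vehicle held a control siRNA, were not stated in the labels. With no replicate, a difference within a line has no measured error.

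SWI/SNF complexes, also called BAF complexes, use ATP to slide or evict nucleosomes and so open DNA to transcription factors. Each canonical BAF complex holds a single ATPase, either SMARCA4 (BRG1) or SMARCA2 (BRM), on a core built from SMARCC1, SMARCC2 and SMARCB1. Around that core lie SMARCD and SMARCE1 proteins and an ARID subunit. Subunits of these complexes are among the genes most often mutated in human cancer, and many lung cancer lines, A549 and H1299 among them, are known to carry inactivating alterations of SMARCA4 and to lack its protein. The arrays measured mRNA, and neither protein nor DNA sequence was measured. TET1, the targeted enzyme, oxidises methylated cytosine at CpG sites.

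The arrays were first checked against their labels. The line markers followed the labels: AKR1B10, ALDH1A1 and ALDH3A1, detoxifying enzymes abundant in A549, were lower in H1299 (log2 differences of -7.16, -6.40 and -7.12). CDKN2A, deleted in A549, was detected on both H1299 arrays and on neither A549 array, and MTAP, its neighbour in that deletion, was detected on both H1299 arrays and also on the A549 knockdown array. The epithelial genes CDH1 and EPCAM were detected in A549 only, KRT8 on all 4 arrays and KRT18 on none. Lung lineage genes (NKX2-1, SFTPB, SFTPC, SCGB1A1) and the markers of leukocytes, endothelium and fibroblasts (PTPRC, CD3E, PECAM1, PDGFRB) were undetected throughout. The TET1 probe ILMN_3247163 was detected on the vehicle arrays only, which puts the knockdown below vehicle by at least 3.14-fold in A549 and by at least 1.74-fold in H1299. Its raw intensities were close to background, at 164.5 and 222.1 in A549 knockdown and vehicle and 186.8 and 255.9 in H1299 knockdown and vehicle. The other TET1 probe, ILMN_1741056, was undetected on both A549 arrays and detected in H1299 vehicle alone, and gives no fold in either line. The arrays also stood apart in a way the groups do not give. The A549 knockdown and H1299 vehicle arrays had 17107 and 16883 detected probes, against 13980 and 14417 on the A549 vehicle and H1299 knockdown arrays. Across the 17002 probes detected on at least 2 arrays, the changes with knockdown in A549 and in H1299 ran against each other (Pearson r = -0.76 across probes, a description), and 77.7% of probes had opposite directions in the lines. Each member is read against that background.

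All values below are normalized log2 signals, background-corrected and quantile normalized, unless raw intensity is named. A change is knockdown minus vehicle within a line, and it was counted as past the threshold at 2-fold, a log2 difference of 1, if the probe was detected on either array. Levels of different probes are not set against each other, since probes differ in their response.

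**Figure D1:**
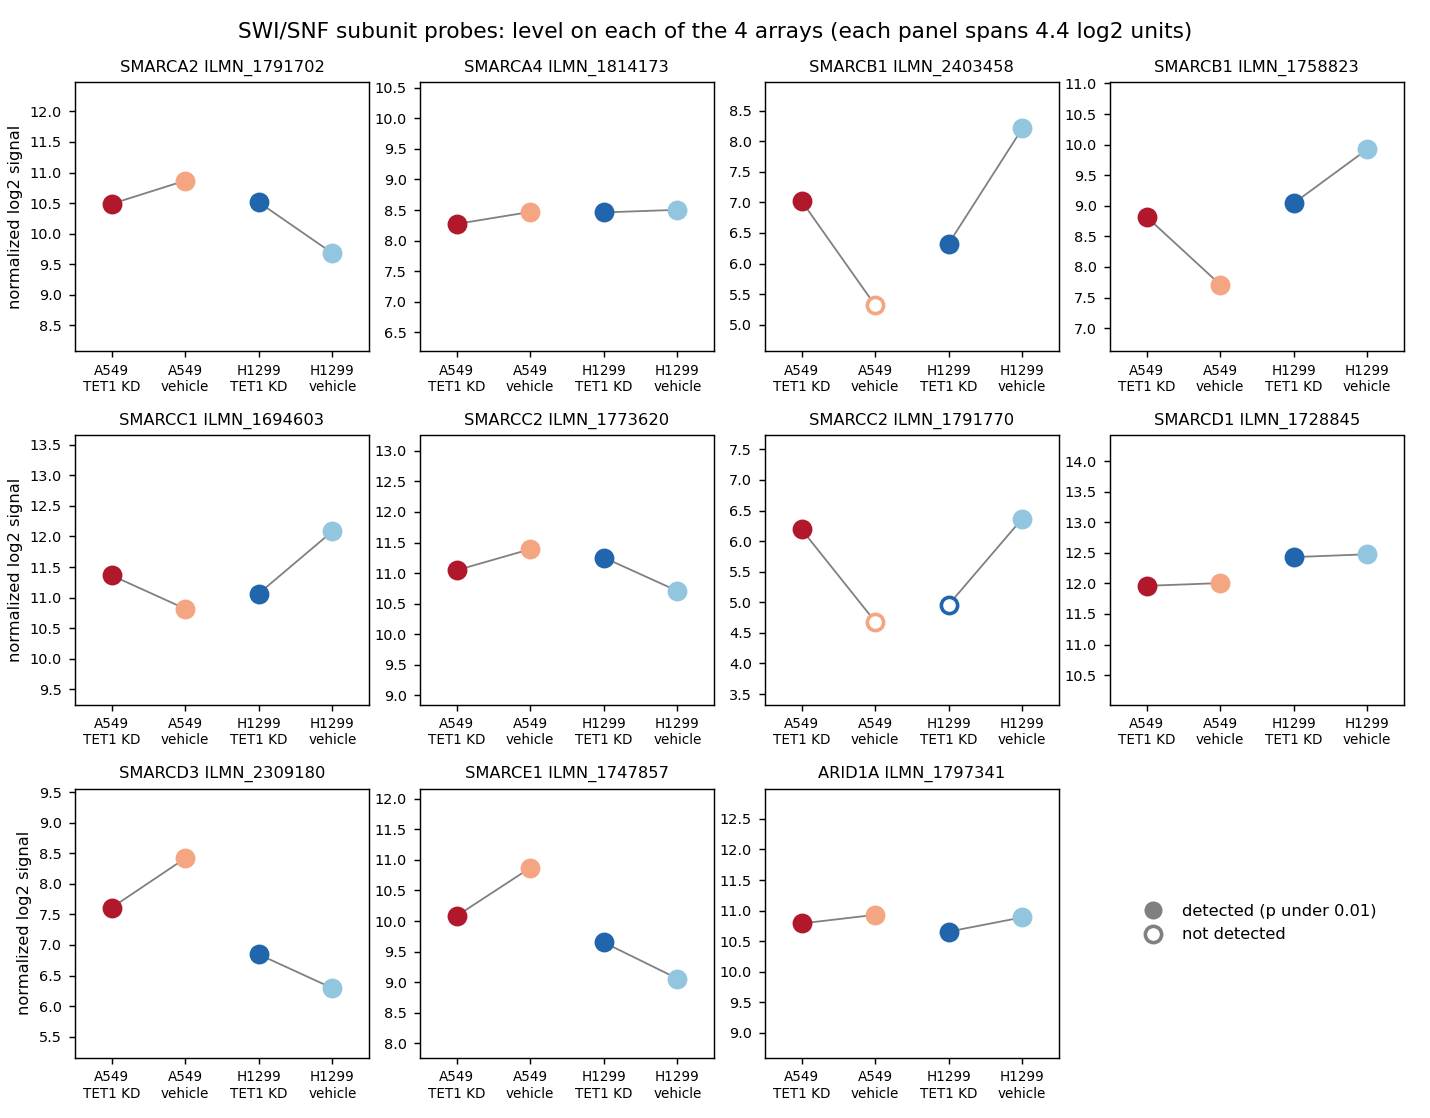
Normalized log2 signal (vertical axis) of the 11 detected SWI/SNF probes on the 4 arrays, with TET1 knockdown left of vehicle in each line, filled points detected and open points not detected. Lines join the arrays of 1 cell line. Both SMARCB1 probes and SMARCC1 lie above vehicle in the A549 knockdown and below it in the H1299 knockdown, SMARCD3 and SMARCE1 show the reverse, and SMARCA4, SMARCD1 and ARID1A lie within 0.23 log2 units of vehicle in both lines.

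The member probes past 2-fold, with values taken as read, belonged to the core subunits SMARCB1, SMARCC1 and SMARCC2. The set depended on the processing: with median centring the ATPase SMARCA2 was past it in H1299 and SMARCC1 was not, with undetected arrays held SMARCC2 was past it in neither line, and on the deposited values no member was. SMARCB1 (SNF5), the core subunit lost in rhabdoid tumours, was higher in the A549 knockdown and lower in the H1299 knockdown on both of its probes. Probe ILMN_1758823 read 8.82 in the A549 knockdown and 7.71 in A549 vehicle, and 9.04 in the H1299 knockdown and 9.92 in H1299 vehicle. Its raw intensity was 686.0 and 266 in A549 knockdown and vehicle, and 667 and 1100.2 in H1299 knockdown and vehicle. The lowest level was thus in A549 vehicle and the highest in H1299 vehicle, with the knockdown arrays between them. The change was 2.16-fold higher in A549 (log2 1.11) and 1.84-fold lower in H1299 (log2 -0.88). The A549 change was 0.996 with an offset of 50, 0.78 without background correction and 0.57 on the deposited values, all under 2-fold, and 1.85 with median centring. The other probe, ILMN_2403458, gave 7.02 and 5.32 in A549 knockdown and vehicle, and 6.33 and 8.21 in H1299 knockdown and vehicle. It was undetected in A549 vehicle, so the A549 knockdown exceeded it by 1.84-fold or more in the main processing. Taken as read, this A549 change was 1.71, but 0.65 without background correction and 0.22 on the deposited values. The H1299 knockdown was 3.68-fold lower on this probe (log2 -1.88, and -0.54 on the deposited values), and 10.2% of the 17747 probes detected in H1299 had a larger absolute change.

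SMARCC1 (BAF155), a scaffold protein around which the complex assembles, had 1 probe, ILMN_1694603. It read 11.36 in the A549 knockdown and 10.82 in A549 vehicle, and 11.07 in the H1299 knockdown and 12.08 in H1299 vehicle. H1299 vehicle was again the highest array and A549 vehicle the lowest. The A549 knockdown was 1.46-fold higher (log2 0.55), and the H1299 knockdown was 2.02-fold lower (log2 -1.02), just past the threshold. When arrays were centred on their medians in place of quantile normalization, the H1299 change was -0.62.

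SMARCC2 (BAF170), the paralog that pairs with SMARCC1, gave different answers by probe. ILMN_1773620, its brightest probe, read 11.05 and 11.39 in A549 knockdown and vehicle, and 11.25 and 10.71 in H1299 knockdown and vehicle, a 1.27-fold lower level with knockdown in A549 (log2 -0.34, and -0.0082 with median centring) and a 1.46-fold higher one in H1299. ILMN_1791770 ran the other way. It read 6.19 and 4.69 in A549 knockdown and vehicle, and 4.96 and 6.37 in H1299 knockdown and vehicle, and was undetected in A549 vehicle and in the H1299 knockdown. Held at the detection limit of those arrays, its knockdown level was higher by at least 1.04-fold in A549 and lower by at least 1.26-fold in H1299. The remaining SMARCC2 probe, ILMN_2251047, was undetected throughout. Such a split between probes was frequent on these arrays. Over 2852 genes with at least 2 tested probes, the 3364 probes that were not the brightest of their gene lay above the brightest by a median of 0.36 in the A549 change and below it by 0.52 in the H1299 change (56.9% did both). Probe positions along the transcripts were not used here, and the part of this probe difference in the SMARCB1 and SMARCC2 values was not tested.

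The ATPases stayed under 2-fold in both lines. SMARCA4, with probe ILMN_1814173, was detected on all 4 arrays. It read 8.27 and 8.47 in A549 knockdown and vehicle, and 8.46 and 8.50 in H1299 knockdown and vehicle. All arrays lay close together, and transcript was measured in both lines. Its changes were -0.20 in A549 and -0.04 in H1299. The A549 direction rests on the scaling, since the raw intensity was 516 in the knockdown and 372 in vehicle and the change was 0.53 with median centring, where the median of all detected probes was 0.42. SMARCA2, the alternative ATPase, read 10.49 and 10.87 in A549 knockdown and vehicle, and 10.51 and 9.68 in H1299 knockdown and vehicle on probe ILMN_1791702. H1299 vehicle was the low array and the other 3 were close. The A549 knockdown was 1.30-fold lower (log2 -0.38) and the H1299 knockdown 1.78-fold higher (log2 0.83). With median centring these changes were -0.011 and 1.08. The raw intensity was 1745.1 in the A549 knockdown and 1636.8 in A549 vehicle, so that the size and direction of the A549 difference rest on the scaling. Relative to the median of all detected probes, the A549 change was -0.31 in the main setting and -0.43 with median centring. The SMARCA2 probe ILMN_1672419 was undetected on all arrays.

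Accessory subunits were split. SMARCE1 (BAF57), which binds DNA through an HMG box, read 10.08 and 10.87 in A549 knockdown and vehicle, and 9.65 and 9.06 in H1299 knockdown and vehicle. Both A549 arrays were above both H1299 arrays, with a 1.72-fold lower level in the A549 knockdown and a 1.51-fold higher level in the H1299 knockdown. SMARCD3 (BAF60C), a subunit best known from heart and muscle, followed the same order on ILMN_2309180, at 7.61 and 8.42 in A549 knockdown and vehicle and 6.85 and 6.29 in H1299 knockdown and vehicle. Its changes were -0.81 in A549 and 0.55 in H1299, and -0.06 in A549 with median centring. The other SMARCD3 probes, ILMN_2408987 and ILMN_1693244, were undetected. SMARCD1 (BAF60A), which links the complex to transcription factors, read 11.96 and 12.00 in A549 knockdown and vehicle and 12.43 and 12.48 in H1299 knockdown and vehicle on ILMN_1728845. The changes were -0.04 in A549 and -0.05 in H1299, and ILMN_1727173 was undetected.

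Of the ARID subunits, which bind DNA and define the canonical BAF complex, ARID1A read 10.79 and 10.93 in A549 knockdown and vehicle and 10.66 and 10.89 in H1299 knockdown and vehicle on ILMN_1797341. The changes of -0.14 and -0.23 were small, and they became 0.21 and 0.12 with median centring. ARID1B, its paralog, had 2 probes, ILMN_2415357 and ILMN_1660433, and neither was detected on any array. The 8 undetected member probes had raw intensities between 117 and 169, with a detection p of 0.0519 or more, so no fold is given for them.

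**Figure D2:**
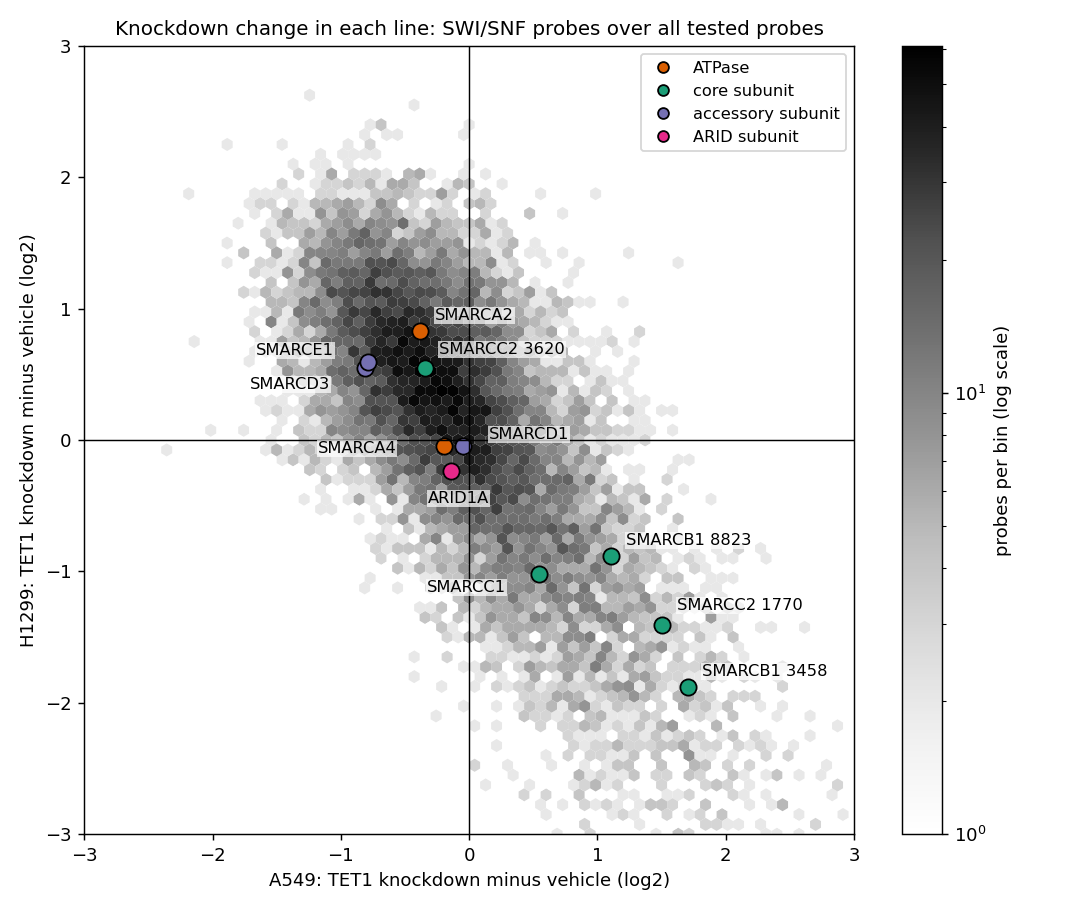
Change of log2 signal with TET1 knockdown in A549 (horizontal axis) against that in H1299 (vertical axis) for the 11 detected SWI/SNF probes, coloured by role, over the density of all 17002 tested probes in grey (584 of them lie outside the axes). Numbers beside SMARCB1 and SMARCC2 are the last digits of the probe names. Of the members, 4 lie at lower right and 4 at upper left, along the same diagonal as the grey cloud, and SMARCA4, SMARCD1 and ARID1A lie near the origin.

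Counted together, 3 of the 11 member probes were past 2-fold in the A549 knockdown, all higher, against a background of 22% of 17579 detected probes (13.6% higher and 8.34% lower). They were both SMARCB1 probes and the dimmer SMARCC2 probe. With undetected arrays held at their limit, 1 remained, SMARCB1 ILMN_1758823, against 16.5% of all probes. In the H1299 knockdown 3 of 11 were past 2-fold, all lower, against 36% of 17747 probes (16.7% higher and 19.3% lower), and 2 with undetected arrays held, against 29.8%. Higher values of any size were found for 4 of 11 in A549, beside 46.2% of all detected probes, and for 4 of 11 in H1299, beside 56.4%. Counted either way, the member share of 27.3% was above the 22% of all probes in A549 and below the 36% in H1299. In the direction that the members took, it was above the background in both lines, but that direction was read from these same probes. With undetected arrays held, the shares of 9.09% and 18.2% were below the 16.5% and 29.8% of all probes. Each of these shares rests on at most 3 probes, of which 2 belong to SMARCB1 in A549. The median change of the 11 probes was -0.14 in A549 and -0.05 in H1299, beside -0.07 and 0.18 over all detected probes. Changes were of opposite direction in the lines for 8 of 11 member probes, a share of 72.7% beside 77.7% of all tested probes. With median centring it was 9 of 11, beside 62%, and with the deposited values 8 of 11. The 8 were 4 probes higher in A549 and lower in H1299 (31.5% of all probes) and 4 of the reverse pattern (46.2%). SMARCA4, SMARCD1 and ARID1A had the same sign in both lines, all lower (9.09% of all probes, while 13.1% were higher in both), but with median centring none of these was lower in both. SMARCB1 ILMN_2403458 and SMARCC2 ILMN_1791770 were past 2-fold in opposite directions as read, 2 of 11 beside 13.7% of all probes. With undetected arrays held, neither was (0 of 11, beside 10.2%), the SMARCB1 bounds being 0.88 in A549 and -1.88 in H1299 and the SMARCC2 bounds 0.05 and -0.34.

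Over both lines, no member separated knockdown from vehicle. In limma, line was a block, and the error was the disagreement of the lines over all probes of like intensity, not that of each probe. By this test, 0 of 11 member probes passed an adjusted p of 0.05, against 1 of 17002 probes (0.00588%). An unadjusted p under 0.05 was reached by 0 of them, against 0.118% of all probes. Arrays on which a probe was undetected entered at their measured values. The mean changes lay between -0.24 ± 0.65 (SE) for SMARCC1 and 0.23 ± 0.75 (SE) for SMARCA2 on the log2 scale, with an adjusted p of 1 in limma for each member. SMARCA4 had a mean of -0.12 ± 1.04 (SE) and SMARCB1 ILMN_1758823 a mean of 0.11 ± 0.97 (SE). For the SMARCB1 probe this small mean averaged opposite changes. With median centring 7 of these 11 means changed sign, while the median of all tested probes moved to 0.31. The SEs were 0.57 to 1.13, so that a shared change of 2-fold in a member could not be told from none, and the result does not show that knockdown left the subunits as they were.

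The lines themselves were then compared over both treatments. SMARCB1 read 9.04 and 9.92 on the H1299 knockdown and vehicle arrays, against 8.82 and 7.71 on the A549 knockdown and vehicle arrays, a mean difference of 1.22 ± 0.97 (SE, limma adjusted p = 0.999896). SMARCD3 was lower in H1299 by 1.44 on the log2 scale (SE 1.13, limma adjusted p = 0.999896), and SMARCE1 by 1.12 (SE 0.81, limma adjusted p = 0.939). For these 3 probes and for SMARCD1 (0.47 ± 0.57, SE) the H1299 arrays did not overlap the A549 arrays. That is 4 of 11 member probes, beside 43.2% of all tested probes, and 2 of these 4 were higher in H1299, beside 22% of all. SMARCA4 differed by 0.11 ± 1.04 (SE) and ARID1A by -0.09 ± 0.70 (SE). No member passed the test between lines, 0 of 11 at an adjusted p under 0.05 in limma and 0 at an unadjusted p under 0.05, beside 3.83% of all probes at the adjusted threshold (1.28% higher and 2.55% lower) and 10.1% at the unadjusted one. For 9 of 11 probes the lines were nearer to each other on the knockdown arrays than on the vehicle arrays, beside 54.6% of all probes. Among the 9, SMARCD1 barely narrowed, at 0.470 between the knockdown arrays and 0.471 between the vehicle arrays. SMARCC2 ILMN_1791770 (-1.23 and 1.68) and SMARCB1 ILMN_2403458 (-0.70 and 2.89) include undetected arrays. SMARCE1, for example, differed by -0.43 between the knockdown arrays and by -1.81 between the vehicle arrays, and SMARCA2 by 0.03 and -1.19. With 1 array in each group this narrowing was not tested, and it is computed from the same array values as the opposite changes above.

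**Figure D3:**
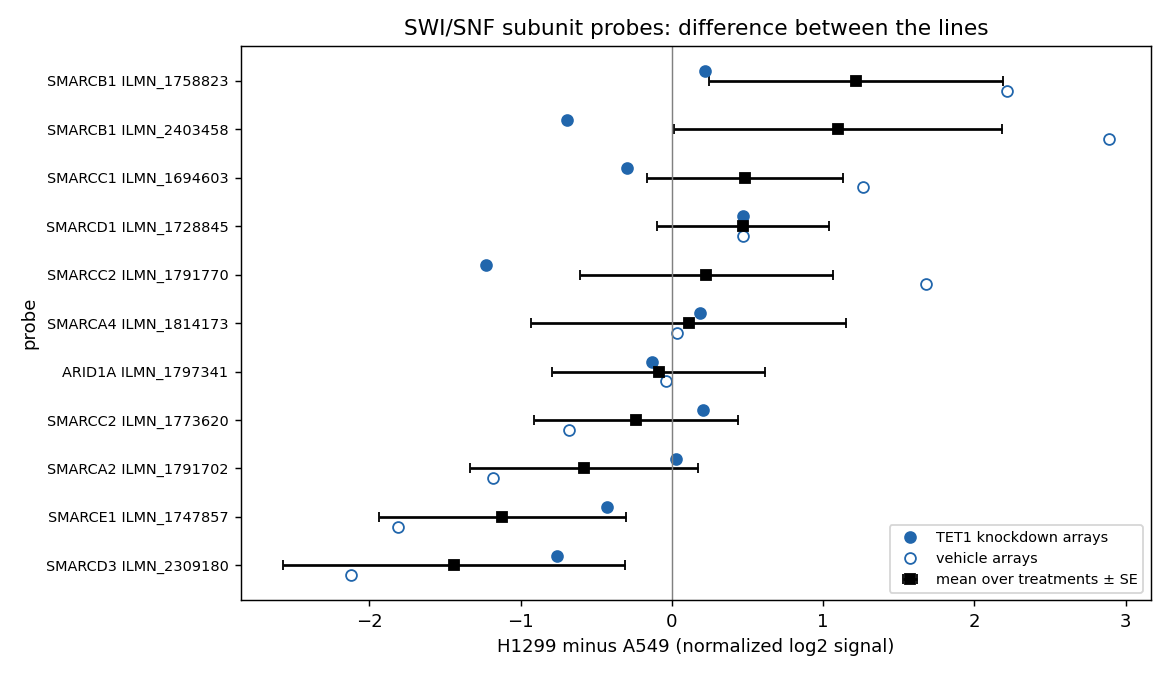
Difference H1299 minus A549 in normalized log2 signal (horizontal axis) for each detected SWI/SNF probe, on the TET1 knockdown arrays (filled circles), on the vehicle arrays (open circles) and as the mean over treatments with its limma SE (squares with bars). Vehicle differences spread from -2.12 for SMARCD3 to 2.89 for SMARCB1 ILMN_2403458, and knockdown differences from -1.23 (SMARCC2 ILMN_1791770) to 0.47. The extremes of both SMARCB1 ILMN_2403458 and SMARCC2 ILMN_1791770 include undetected arrays at their measured values.

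Because TET1 acts on methylated CpG sites, the DNA before the start of both ATPases, SMARCB1 and SMARCE1 is shown, as sequence context only. The stretches are the 250 bases before the outermost gene start in RefSeq on GRCh38.p14, read 5′ to 3′ on the gene's strand, with each CpG in capitals.
SMARCB1, chr22:23786716-23786965, plus strand: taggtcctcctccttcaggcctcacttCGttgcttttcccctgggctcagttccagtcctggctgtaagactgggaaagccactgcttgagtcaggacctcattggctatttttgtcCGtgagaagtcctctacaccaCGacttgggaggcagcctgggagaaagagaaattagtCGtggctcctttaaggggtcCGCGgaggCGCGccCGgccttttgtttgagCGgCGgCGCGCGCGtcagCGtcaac
SMARCE1, chr17:40647819-40648068, minus strand: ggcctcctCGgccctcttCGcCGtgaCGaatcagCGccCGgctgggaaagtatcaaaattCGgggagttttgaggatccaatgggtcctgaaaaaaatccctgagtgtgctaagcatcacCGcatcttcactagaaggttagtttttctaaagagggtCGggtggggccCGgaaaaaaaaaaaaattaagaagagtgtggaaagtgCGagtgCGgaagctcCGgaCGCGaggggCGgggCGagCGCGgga
SMARCA2, chr9:2015097-2015346, plus strand: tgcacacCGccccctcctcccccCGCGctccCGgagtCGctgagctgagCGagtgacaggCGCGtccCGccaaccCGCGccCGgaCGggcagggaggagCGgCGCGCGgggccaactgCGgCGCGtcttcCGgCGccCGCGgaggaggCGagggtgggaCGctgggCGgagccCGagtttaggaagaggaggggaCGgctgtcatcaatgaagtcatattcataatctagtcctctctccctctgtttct
SMARCA4, chr19:10960780-10961029, plus strand: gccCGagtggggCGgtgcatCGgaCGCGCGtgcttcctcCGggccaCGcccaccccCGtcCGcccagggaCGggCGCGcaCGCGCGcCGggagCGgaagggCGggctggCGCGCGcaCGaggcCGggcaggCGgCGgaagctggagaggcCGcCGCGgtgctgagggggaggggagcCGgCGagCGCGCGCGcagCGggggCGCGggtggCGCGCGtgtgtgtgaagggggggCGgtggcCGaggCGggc
The SMARCB1 stretch holds 16 CpG, SMARCE1 19, SMARCA2 29 and SMARCA4 44. The motif CG reads the same on both strands, and 93.9% of 35116 promoter windows of this length hold at least 1, with a median of 11. As many CpG as at SMARCA4 occur in 0.769% of windows, as at SMARCA2 in 14.1%, as at SMARCE1 in 34.6% and as at SMARCB1 in 41%. Of the members, 8 matched a RefSeq promoter entry (5 to 44 CpG in the outermost window), and SMARCC1 and SMARCC2 are named only. The outermost windows of SMARCD3, SMARCD1, ARID1A and ARID1B hold 21, 28, 30 and 5. These 8 genes have 15 windows in all, and the counts at other starts differ. They are 37 at ARID1B, 1 and 34 at SMARCD3, 0, 1 and 8 at SMARCA2 and 4 at SMARCA4. No methylation was measured, so no relation between these sequences and the values was tested.

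Other genes of the SWI/SNF family were described by their brightest probe. The list held 21 further subunits, of which 17 were detected in A549, 6 higher and 11 lower in the knockdown with a median of -0.25. Past 2-fold in A549, with values taken as read, were PHF10, a subunit of PBAF complexes (2.15-fold higher), BICRAL, a subunit of the non-canonical complex (log2 -1.16), and DPF3, a reader of modified histones (log2 -1.48). DPF3 was undetected in the A549 knockdown, and with that array held it was lower by at least 1.63-fold, a bound under the threshold. In H1299 18 were detected, 9 higher and 9 lower, with a median of 0.01. BCL7B was past 2-fold higher there (log2 1.26). PHF10 (at least 3.22-fold), SMARCD2 (log2 -1.74, at least 1.39-fold), the PBAF subunit PBRM1 (log2 -1.23) and the actin-related subunit ACTL6A (log2 -1.08) were past it lower. PHF10 and ACTL6A (0.51 in A549) thus ran as SMARCB1 did, while the brightest BCL7B probe (-0.99 in A549) ran as SMARCE1 did. The dimmer BCL7B probe, ILMN_1754199, ran the other way. With knockdown it was higher by at least 2.47-fold in A549 and lower by at least 2.70-fold in H1299. Opposite directions held for 12 of 17 of these genes, beside 77.7% of all tested probes. Over all detected probes, 46.2% were higher and 22% past 2-fold with knockdown in A549, and 56.4% and 36% in H1299. PBRM1 probes disagreed, the log2 difference of ILMN_1659470 being -1.05 in A549 and 0.66 in H1299. Dimmer probes of SS18, a subunit fused in synovial sarcoma, and of ACTB, which is itself a subunit, showed the probe split at its widest. With knockdown, SS18 ILMN_1741782 was higher by at least 4.26-fold in A549 and lower by at least 11.7-fold in H1299, whereas its brightest probe differed by -0.47 and 0.75. With knockdown, ACTB ILMN_1777296 was higher by at least 41.3-fold in A549 and lower by at least 193-fold in H1299, whereas the brightest ACTB probe differed by -0.70 and -0.82.

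Between lines, the list's largest differences were BCL11A, a transcription factor found in some complexes (higher in H1299 by at least 5.74-fold, with A549 undetected, limma adjusted p = 0.138), BCL7C (1.58) and BCL7A (1.03), and in the other direction BICRA (-0.90), SS18L1 (-0.72) and PBRM1 (-0.45). For PBRM1 the value is that of the brightest probe, and its other probes went the other way. PBRM1 ILMN_1659470 was higher in H1299 by 0.89, and ILMN_2385239, undetected in A549 vehicle, by 0.57. None of the 17 tested passed, between lines or with knockdown.

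Remodelling ATPases outside the family gave a similar picture. Of 20 listed, 18 were detected in A549 (8 higher, 10 lower, median -0.06) and 17 in H1299 (12 higher, 5 lower, median 0.15). CHD9 (log2 -1.03) and RAD54L2 (log2 -1.01) were past 2-fold lower in the A549 knockdown. In the H1299 knockdown RAD54L2 (log2 1.63) and ERCC6 (log2 1.20 as read, at least 1.98-fold) were past it higher, and SMARCAD1 (log2 -1.74) and ATRX (at least 2.17-fold) lower. Directions were opposite for 14 of 17, beside 77.7% of all tested probes. The shares of all detected probes past 2-fold were 22% in A549 and 36% in H1299, and those higher 46.2% and 56.4%. On their brightest probes the ISWI ATPase SMARCA5 differed by -0.09 in A549 and 0.39 in H1299, and the NuRD ATPase CHD4 by 0.19 and -0.31. Their dimmer probes were also detected on all 4 arrays. SMARCA5 ILMN_1713163 differed by 0.13 in A549 and -0.62 in H1299, and CHD4 ILMN_1685551 by 0.48 and -1.86. Between lines the largest differences were CHD7 (1.68 higher in H1299, limma adjusted p = 0.334), RAD54L2 (0.93) and CHD4 (0.80), and CHD9 (-1.10), CHD2 (undetected in H1299, at least 1.41-fold lower) and SMARCA1 (-0.92) the other way, with none of 17 passing.

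**Figure D4:**
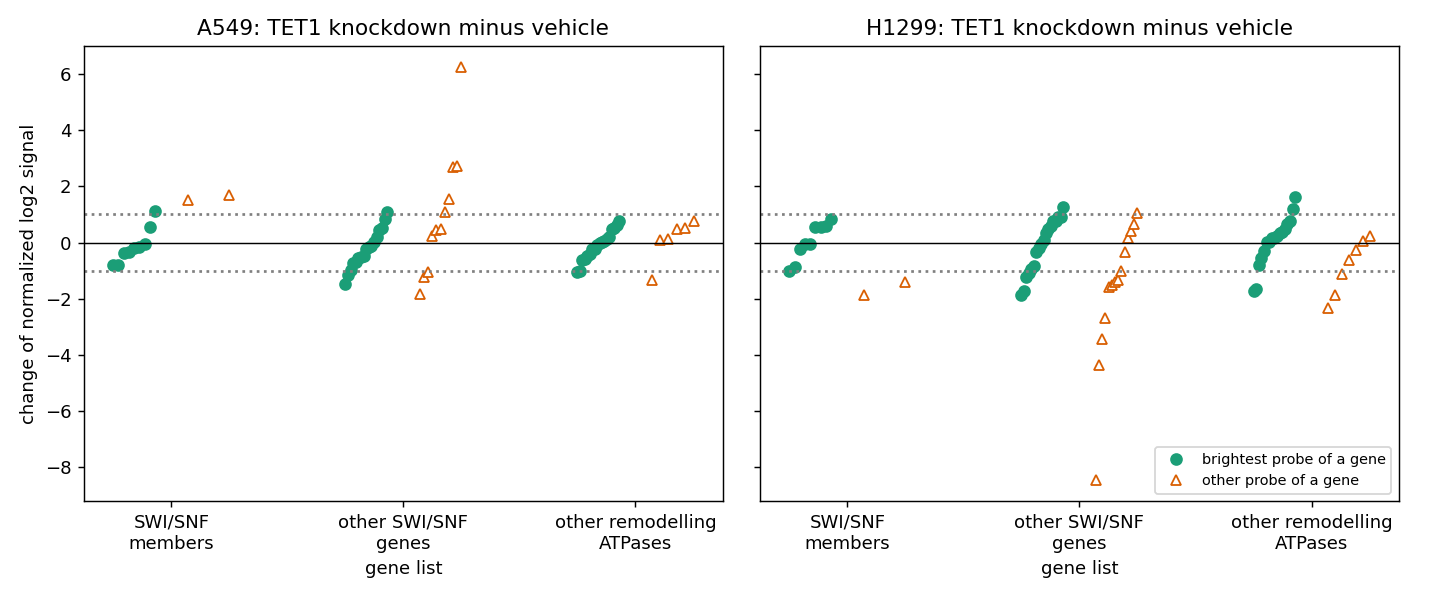
Change of log2 signal with TET1 knockdown in A549 (left) and H1299 (right) for the 10 member genes, the 21 other SWI/SNF genes and 20 other remodelling ATPases, for probes detected on either array of the line. Filled circles are each gene's brightest probe and open triangles its other probes, and dotted lines mark 2-fold. Circles of the 3 lists overlap, and the farthest triangles, a probe of ACTB, lie at 6.27 and -8.48.

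Of 3 genes whose expression depends on SWI/SNF in studies that put the missing ATPase back into deficient lines, the adhesion receptor CD44 read 13.71 and 13.48 in A549 knockdown and vehicle and 13.20 and 12.88 in H1299 knockdown and vehicle on its brightest probe. Its changes of 0.23 and 0.32 were small and of 1 sign, but its probe ILMN_2348788 was higher with knockdown by at least 6.41-fold in A549 and lower by at least 8.09-fold in H1299. CDH1, the epithelial cadherin, read 9.64 and 8.80 in A549 knockdown and vehicle and was undetected in H1299, at least 10.7-fold lower than in A549 (limma adjusted p = 0.0032). CSF1, a cytokine of macrophages, was undetected on all arrays.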

How the data were processed

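The authors deposited a mean bead signal intensity for each probe and array without normalization, per the file headers, and beside it the array software's detection p-value. Their deposited processed table was used as an alternative. Its values lie on a scale like log2, and lumi is named in the submitters' processing notes, with no version, transformation or normalization stated there. Columns were matched to samples through the chip position given in the labels.

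Background was removed from the intensity with normexp, the negative controls being estimated from detection p-values, and an offset of 16, quantile normalization and log2 followed (neqc, limma 3.58.1, R 4.3.3). An undetected side was held at the lowest normalized value among detected probes of its array, or at its own value where higher. The bounds so obtained hold for this processing only. Limma fitted line and knockdown to 17002 probes, those detected on 2 or more arrays. The fit had a trend on intensity, 1 residual degree of freedom, two-sided tests and Benjamini-Hochberg adjustment over all probes. Limma estimated an infinite prior, so that every SE comes from the trend over all probes. Older symbols were updated through RefSeq names. The fit was tested on simulated data. Members, lists and tests were chosen with earlier results of these data known. Named genes were all members, TET1, line markers (1 of which is not reported here), SWI/SNF-dependent genes, and list genes past 2-fold (at most 6 in a comparison) or with the 3 largest line differences each way. Further probes of SS18, PBRM1, BCL7B, ACTB and CD44, and the knockdown changes of SMARCA5 and CHD4, were chosen after their values were seen. Separate cultures are not stated, so p-values cover the spread of these 4 samples only, and the number of arrays limits precision. Alternatives were no background correction, median centring, an offset of 50, the deposited values, a detection p of 0.05, no filter, 1 probe per symbol, no trend and no block. Figures used matplotlib 3.10.9.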

Additional observations from a re-analysis of the deposited data

Results flagged for a closer look

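The change with TET1 knockdown differed between the lines for 2 member probes whose values, taken as read, were past 2-fold in opposite directions. For SMARCB1 ILMN_2403458 the H1299 change minus the A549 change was -3.59 on the log2 scale, and for SMARCC2 ILMN_1791770 it was -2.91. With 1 array in each group neither difference was tested, and neither is a measured size. Both probes were undetected on the A549 vehicle array and the SMARCC2 probe also on the H1299 knockdown array, the arrays with the fewest detected probes, and with those arrays held at their limit the changes in H1299 and A549 were -1.88 and 0.88 for SMARCB1 and -0.34 and 0.05 for SMARCC2, so that neither probe was past 2-fold in both lines. Of all tested probes, 13.7% were past 2-fold in opposite directions as read and 10.2% when held.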

How the results depend on the processing

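The counts of member probes past 2-fold depended on the processing. In A549 the count of 3 of 11 (22% of all probes) was 0 without background correction (7.29% of all), 1 with an offset of 50 (13.6%) and 0 on the deposited values (4.14%). In H1299 the count of 3 (36% of all) was 1 without background correction (15.5%), 2 with an offset of 50 (25.8%) and 0 on the deposited values (8.84%). Under median centring it was 3 in H1299 (37.7%), with SMARCA2 in place of SMARCC1. A larger offset shrinks changes of dim probes by construction. The directions of both SMARCB1 probes, SMARCC1 and SMARCC2 ILMN_1791770 were the same in either line in the main and the 5 alternative settings run within a line. So were those of SMARCA2 ILMN_1791702, SMARCC2 ILMN_1773620, SMARCD3 and SMARCE1. In A549 with median centring, however, SMARCA2 and SMARCC2 ILMN_1773620 changed by only -0.011 and -0.0082. ARID1A, SMARCA4 and SMARCD1 changed direction in A549 with median centring. The 0 member probes called over both lines and the 0 called between lines stayed 0 under the 9 alternatives to each fit. Median centring turned the mean change over both lines to 0.16 for ARID1A, 0.22 for SMARCA4, 0.018 for SMARCB1 ILMN_2403458, 0.14 for SMARCC1, 0.29 for SMARCD1, 0.12 for SMARCD3 and 0.18 for SMARCE1, as the median of all tested probes moved by it to 0.31. The deposited values turned that of SMARCB1 ILMN_1758823 to -0.046. None of these passed in either setting (limma adjusted p of 0.999949 or more). All line differences kept their sign. A direction could change only without background correction, with median centring, with an offset of 50 or on the deposited values. The other alternatives reuse the main normalized values, so their changes and differences were the same by construction. Leaving out an array was not run, since it would leave no residual degree of freedom for the fit with both terms. Probes near background limit what can be said of ARID1B, SMARCC2 ILMN_1791770 and SMARCB1 ILMN_2403458.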
